A study of Homo sapiens with 4 samples.

Results

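The genes described here are 38 core genes and receptors of autophagy, chosen by name for their role, with earlier results of these data known. All 38 were found among the 58812 genes of the files, each with 1 Ensembl identifier, and all 38 were among the 19814 genes with enough counts to test. Total RNA depleted of ribosomal RNA was sequenced from A549, an established epithelial cell line from a human lung carcinoma. One group (2 libraries, SAMD9) had been transfected with a plasmid that expresses SAMD9 with a Myc-DDK tag, and the other (2 libraries, empty vector) with pCMV6-Entry, the same kind of plasmid without that insert. Both groups received 1 µg of plasmid for 24 hr, and the cells are otherwise described as wild type. The share of cells that took up the plasmid is not given in the sources used here, and the labels do not say that replicates were separate cultures, so p-values reflect only how these libraries differ from each other, which may be technical.

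Autophagy delivers cytoplasm, damaged organelles and microbes to the lysosome. The ULK1 kinase complex starts a new membrane, a lipid kinase complex built on PIK3C3 and BECN1 marks it, lipid transfer proteins enlarge it, and a ubiquitin-like conjugation system attaches ATG8 proteins to it. Selective receptors such as SQSTM1, OPTN and CALCOCO2 tie cargo to ATG8 proteins, and lysosomal membrane proteins of the LAMP family lie at the end of the route. In infected epithelial cells the same receptors capture bacteria and viral components. SAMD9 is a cytoplasmic antiviral factor whose gene responds to interferon.

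Library totals ranged from 29301854 to 39670083 counts. SAMD9 itself had 220123 and 184350 counts in the SAMD9 libraries and 444 and 400 in the empty vector libraries, which fits the labels. Of all 19814 genes tested, 27.5% were called, made up of 15.3% higher and 12.2% lower with SAMD9. A gene was called when its edgeR quasi-likelihood p, adjusted by Benjamini-Hochberg over all genes tested, was below 0.05. Levels within a gene are given as CPM, counts scaled to a common library size by TMM, a normalisation that assumes most genes do not change. TMM left the median gene at a log2 fold change of -0.01, whereas scaling by total counts alone put it at -0.19, so small changes in either direction depend on the scaling. Levels between genes are compared only as the deposited RPKM, which divides by gene length and is scaled by total counts. For a single value, the smallest two-sided p that an exact permutation of 2 and 2 libraries allows is 0.333.

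With SAMD9, 10 of the 38 genes rose and 5 fell. LAMP3 rose 156-fold, OPTN 4.33-fold, CALCOCO2 2.32-fold and GABARAPL1 1.68-fold. The falls were smaller, the largest being ULK1 at -0.57 (SE 0.07) and ATG16L1 at -0.49 (SE 0.08) on the log2 scale. The 15 calls were set against 27.5% of all genes tested, and against 39.9% (21.2% higher and 18.7% lower) of the 10512 genes whose average expression lay within the range of these 38, so their number was near that of like-expressed genes. The median log2 fold change of the 38 was 0.06, against -0.01 for all genes tested, and 33 of the 38 had an absolute value under 0.5. A change of at least 1 on the log2 scale was reached by 3 of the higher genes, against 6.07% of all genes tested, and by 0 of the lower ones, against 1.45%. Groups did not overlap in CPM for 29 of the 38, against 62.0% of all genes tested. Of the 15 calls, 4 higher (LAMP3, OPTN, CALCOCO2 and GABARAPL1) and 3 lower (ULK1, ATG16L1 and ATG2B) also held under each of 10 other ways of processing, and the other 8 were lost under at least 1 of them. How many of all called genes held in the same way was not counted, so these numbers have no background share beside them. With total-count scaling 4 of the 38 were higher and 11 lower, beside 9.96% and 28.5% of all genes tested. Bulk RNA cannot separate a change in the number of cells of a kind from a change in RNA per cell.

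**Figure D1:**
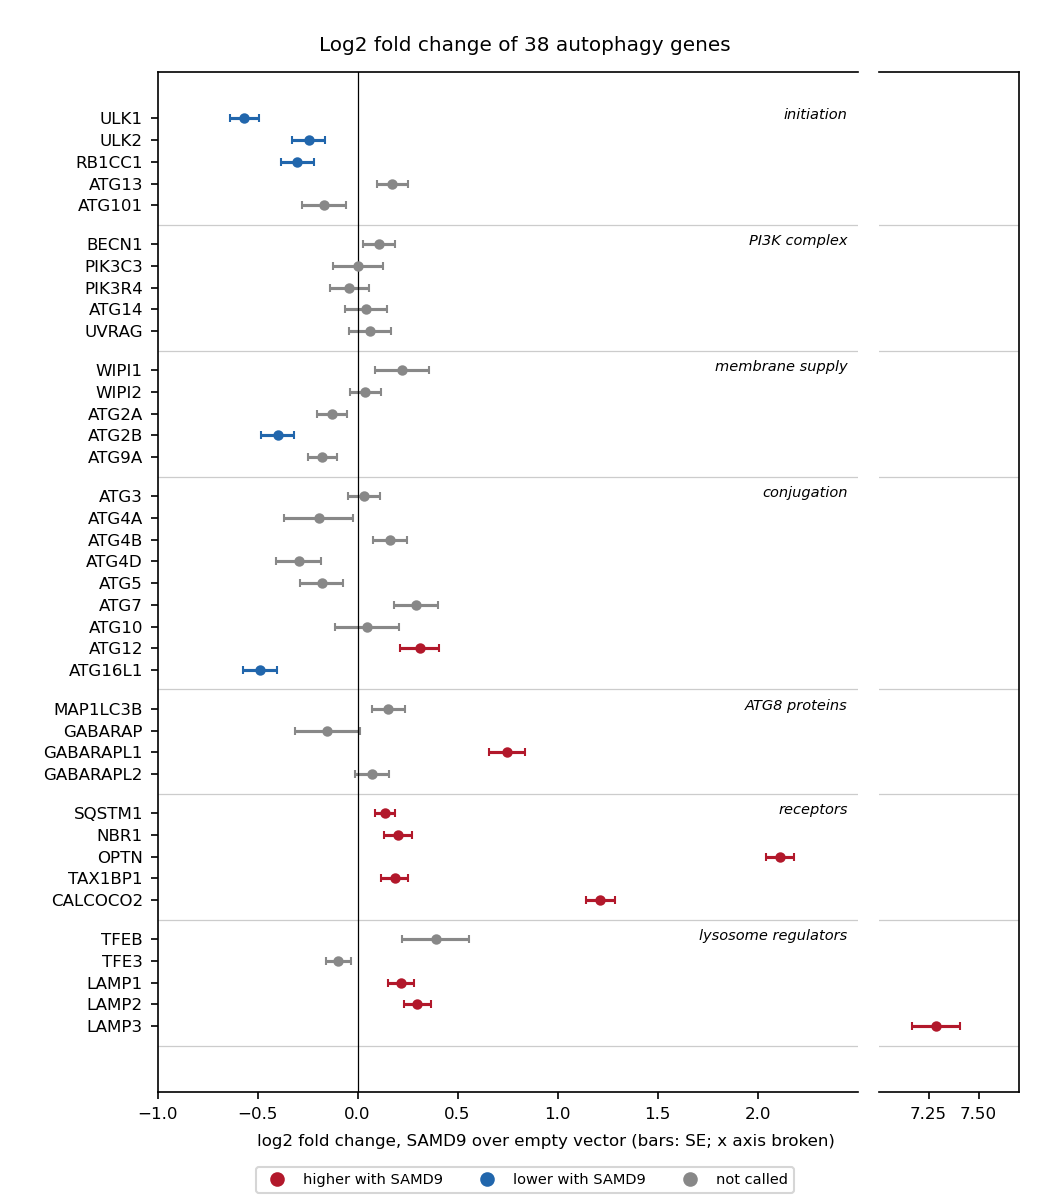
Log2 fold change of each of the 38 genes, SAMD9 over empty vector, grouped by role, with bars for the SE from edgeR (n = 2 libraries per group). LAMP3 lies at 7.29, to the right of a break in the axis, OPTN at 2.11 and CALCOCO2 at 1.21, whereas the PI3-kinase complex genes stay between -0.04 and 0.11.

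Promoter sequences are shown for the 3 strongest rises that have an entry in the RefSeq promoter table, and for LAMP1, the relative of LAMP3 with an entry there. Of the 38 genes 33 matched that table (RefSeq, GRCh38.p14), and LAMP3, LAMP2, ATG4D, RB1CC1 and UVRAG did not. Each line gives the 250 bases before the start site annotated in RefSeq, 5′ to 3′ on the strand of the gene. Letters that match a searched motif are in capitals (the lines without capitals hold none). For OPTN, CALCOCO2 and GABARAPL1 that site lies inside the gene as counted, which begins at 13099449, 48830988 and 10212458. The stretches of OPTN and GABARAPL1 lie wholly within the counted gene.
OPTN (chr10:13099832-13100081, plus strand): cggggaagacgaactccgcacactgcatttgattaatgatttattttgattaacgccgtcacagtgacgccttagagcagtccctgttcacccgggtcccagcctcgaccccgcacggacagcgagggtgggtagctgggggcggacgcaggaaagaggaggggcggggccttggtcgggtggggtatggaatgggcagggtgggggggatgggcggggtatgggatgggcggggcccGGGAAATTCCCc
CALCOCO2 (chr17:48830785-48831034, plus strand): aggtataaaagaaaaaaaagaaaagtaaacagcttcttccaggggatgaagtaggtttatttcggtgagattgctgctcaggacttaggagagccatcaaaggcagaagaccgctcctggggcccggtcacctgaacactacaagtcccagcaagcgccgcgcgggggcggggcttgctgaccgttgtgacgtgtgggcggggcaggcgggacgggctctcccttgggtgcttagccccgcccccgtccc
GABARAPL1 (chr12:10212627-10212876, plus strand): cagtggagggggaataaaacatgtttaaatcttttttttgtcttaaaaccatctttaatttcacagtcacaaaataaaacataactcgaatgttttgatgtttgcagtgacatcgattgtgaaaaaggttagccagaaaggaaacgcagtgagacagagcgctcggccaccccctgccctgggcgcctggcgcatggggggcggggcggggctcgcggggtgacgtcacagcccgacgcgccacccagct
LAMP1 (chr13:113296989-113297238, plus strand): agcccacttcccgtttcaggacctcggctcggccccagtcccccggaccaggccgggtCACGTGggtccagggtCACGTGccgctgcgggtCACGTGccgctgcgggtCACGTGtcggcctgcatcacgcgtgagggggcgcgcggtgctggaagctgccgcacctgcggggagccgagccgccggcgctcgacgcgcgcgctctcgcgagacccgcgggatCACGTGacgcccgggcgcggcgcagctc

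Motifs were searched on both strands of the 300-base windows that run from 250 bases before to 50 bases after the start. The interferon-stimulated response element core was found in 0 of the 33 windows, against 3.65% of 27305 windows in the table. The E-box CACGTG, the core of the element that TFEB and TFE3 bind, was found in 3 of 33 (LAMP1, ATG3 and ATG14), against 7.43% of all windows. LAMP1 held 6 copies of it, the last of which spans the start site and is not in the printed stretch. The CLEAR core, a longer form that contains the E-box, was in 0 of 33 windows and 0.381% of all. The GAS core TTCNNNGAA was found in ATG5 and GABARAPL2, 2 of 33, against 7.88% of all windows. In OPTN the capitals mark overlapping matches on both strands to the NF-kB consensus, from 12 to 2 bases before the start. That motif was added after the sequences had been read, and 6 of 33 windows (OPTN, BECN1, ATG2B, GABARAPL2, PIK3C3 and TFE3) and 10.8% of all windows held it. A match is a run of letters and not a shown binding site, and a window without one says nothing about the factor.

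The 5 selective autophagy receptors were all called higher, beside 15.3% of all genes tested and 21.2% of those in the same range of expression. The calls of OPTN and CALCOCO2 held under all 10 other ways of processing, and those of SQSTM1, NBR1 and TAX1BP1 did not. OPTN, a ubiquitin-binding receptor for damaged mitochondria and intracellular bacteria (ENSG00000123240, chromosome 10, 13099449 to 13138308, plus strand, GRCh38), had 10374 and 8584 counts with SAMD9 and 2224 and 2094 with empty vector. Its level was 289 ± 15.3 CPM with SAMD9 and 66.8 ± 6.02 CPM with empty vector (SD, n = 2 each). The log2 fold change was 2.11, with SE 0.07 and an edgeR adjusted p of 1.4e-16. The lower SAMD9 library was 278 CPM and the higher empty vector library 71.1 CPM, so the groups lay far apart. CCDC3, which shares 147 exonic bases with OPTN on the opposite strand, also rose, but had only 80 and 79 counts with SAMD9 and 31 and 44 with empty vector. The sources used here do not say whether counting used strand, so reads from overlapping genes on opposite strands may not be told apart, here and for the overlaps named below.

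CALCOCO2, the receptor also called NDP52 that recognises bacteria and damaged vesicles (ENSG00000136436, chromosome 17, 48830988 to 48866522, plus strand), had 4132 and 3135 counts with SAMD9 and 1484 and 1589 with empty vector. That was 111 and 109.5 CPM with SAMD9, against 47.4 and 47.5 CPM with empty vector. The log2 fold change was 1.21 (SE 0.07, edgeR adjusted p = 4.1e-12), and replicates differed by far less than the groups. No gene in the files shares exonic bases with CALCOCO2.

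The remaining receptors rose by 0.14 to 0.20 on the log2 scale, and none of these 3 calls held under all other processing. SQSTM1, the aggregate receptor p62, had 1277 and 1281 CPM with SAMD9 and 1181 and 1143 CPM with empty vector (log2 fold change 0.14, SE 0.05, edgeR adjusted p = 0.0425). NBR1, which works with SQSTM1 on ubiquitin-marked aggregates, had 119 and 114 CPM with SAMD9, against 105 and 97.3 CPM with empty vector. TAX1BP1, a relative of CALCOCO2, had 147 and 151 CPM with SAMD9 and 138 and 124 CPM with empty vector. The adjusted p was 0.0320 for NBR1 and 0.0438 for TAX1BP1. Under total-count scaling the log2 fold change became -0.05 for SQSTM1, 0.01 for NBR1 and -0.00 for TAX1BP1, and all 3 calls were lost. They were lost as well under upper-quartile scaling and without either SAMD9 library, and those of NBR1 and TAX1BP1 also with DESeq2 and without empty vector replicate 2. With the replicate number as a block the calls of SQSTM1 (adjusted p = 0.0571) and TAX1BP1 (adjusted p = 0.0567) were lost. MRNIP shares 1582 exonic bases, 20.7% of the length of SQSTM1, on the opposite strand.

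Within each library the makeup of receptor transcripts shifted, a measure that scaling between libraries cannot change. OPTN made up 20.5% and 21.7% of the summed receptor RPKM in the SAMD9 libraries and 6.87% and 6.33% in the empty vector libraries. CALCOCO2 made up 5.03% and 4.89% with SAMD9 and 2.83% and 2.96% with empty vector. SQSTM1 was the most abundant receptor in every library, at 63.1% and 62.2% with SAMD9 and 76.6% and 77.7% with empty vector. The ratio of OPTN to TAX1BP1 in RPKM was 3.38 and 3.53 with SAMD9, against 0.919 and 0.902 with empty vector. Each of these shares separated the groups without overlap, and the exact two-sided permutation p was 0.333, the smallest the design allows.

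**Figure D2:**
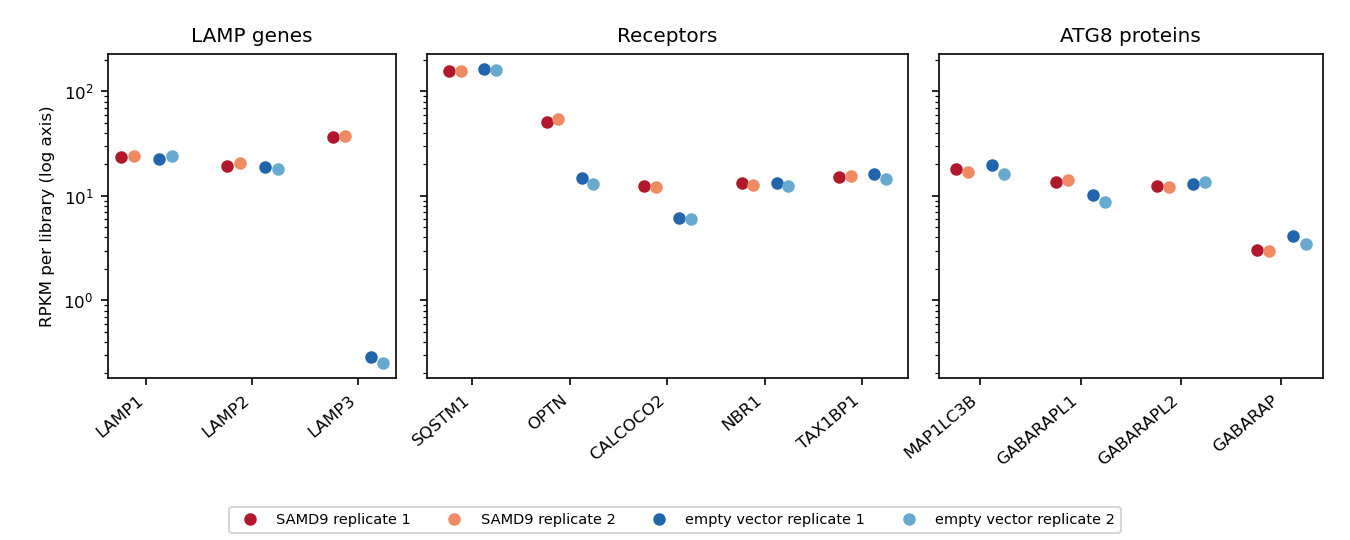
Deposited RPKM (log axis) of the LAMP genes, the receptors and the ATG8 proteins, 1 point per library, with the SAMD9 libraries left of the empty vector libraries for each gene. LAMP3 averages 36.8 RPKM with SAMD9 and 0.268 RPKM with empty vector, whereas the points of NBR1, at 13.0 and 12.9 RPKM on average, and of TAX1BP1, at 15.21 and 15.23, lie at about the same height in both groups.

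At the lysosome, LAMP3 stood apart from LAMP1 and LAMP2. LAMP1 and LAMP2 are abundant proteins of the lysosomal membrane in most cells, whereas LAMP3, also called DC-LAMP, is known mainly from mature dendritic cells and alveolar type II cells. LAMP3 (ENSG00000078081, chromosome 3, 183122213 to 183163839, minus strand) had 5507 and 4372 counts with SAMD9 and 32 and 30 with empty vector. The levels were 148 and 153 CPM with SAMD9, against 1.02 and 0.896 CPM with empty vector. The groups lay far apart and replicates close together (log2 fold change 7.29, SE 0.12, edgeR adjusted p = 1.4e-22). It ranked 61 of 19814 tested genes by log2 fold change, and no gene in the files shares exonic bases with it. Over the other ways of processing its log2 fold change ran from 7.10 to 7.38.

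LAMP2, which also has a form used in chaperone-mediated autophagy, rose by 0.30 (SE 0.07, edgeR adjusted p = 0.00192) on the log2 scale, with 114 and 123 CPM with SAMD9 and 97.6 and 94.8 CPM with empty vector. LAMP1 rose by 0.22 (SE 0.07, adjusted p = 0.0166), with 144 and 148 CPM with SAMD9, against 121 and 131 CPM with empty vector. The call of LAMP2 was lost under total-count scaling (log2 fold change 0.11) and without SAMD9 replicate 2. That of LAMP1 was lost under total-count scaling (0.03), under upper-quartile scaling and without SAMD9 replicate 1, SAMD9 replicate 2 or empty vector replicate 1. LAMP3 was 1.54 and 1.55 times LAMP1 in RPKM with SAMD9, and 0.0128 and 0.0103 times LAMP1 with empty vector. Of the summed RPKM of the 3 LAMP genes, LAMP3 made up 45.8% and 45.4% with SAMD9 and 0.688% and 0.584% with empty vector. By mean RPKM it was the fourth of the 38 genes with SAMD9, at 36.8, and the lowest of the 38 with empty vector, at 0.268.

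Markers of the cell types in which LAMP3 is known were counted in the same libraries. Of all genes tested, 15.3% were called higher and 12.2% lower. Summed levels of the markers are scaled by total counts, unlike the calls. That scaling put the median of all genes tested at a log2 fold change of -0.19, so sums tend to be lower with SAMD9. Of 8 alveolar type II markers, 3 had enough counts to test and 0 were called by edgeR (0 also at an unadjusted p below 0.05), and DESeq2 called 0. Their summed level, in CPM by total counts, was 141 and 134 with SAMD9 and 170.02 and 172 with empty vector, and the lipid transporter gene ABCA3 had most of it (5531 and 4064 counts with SAMD9, 4912 and 5286 with empty vector). The surfactant gene SFTPC had 2 and 0 counts with SAMD9 and 10 and 10 with empty vector, and SFTPA2 had 0 in all 4 libraries. Of 10 dendritic cell and leukocyte markers, 5 were tested, 1 was higher and 2 were lower, and their summed level on that scale was 114 and 109 with SAMD9 and 147 and 164 with empty vector. Nearly all of that sum came from 1 gene, FSCN1, with 4296 and 3105 counts with SAMD9 and 4113 and 4981 with empty vector. PTPRC, which marks all leukocytes, had 0 and 3 counts with SAMD9 and 0 and 0 with empty vector, and CLEC9A, CD1C and MS4A1 had 0 in all 4. The higher gene was CD83 (61 and 116 counts with SAMD9, 25 and 38 with empty vector), whose call was lost without SAMD9 replicate 2. The lower genes were CCR7 (7 and 12 counts with SAMD9, 27 and 39 with empty vector), whose call was lost with DESeq2 and in 3 of 4 fits without 1 library, and FSCN1. The 6 epithelial markers summed to 5921 and 5587 with SAMD9 and 4928 and 5434 with empty vector, with 2 of the 5 tested higher. The 6 fibroblast markers summed to 5.85 and 5.89 with SAMD9 and 1.71 and 3.02 with empty vector, with 1 of the 2 tested higher and DCN at 0 in all 4 libraries. The part of these markers in the LAMP3 result was not tested.

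TFEB and TFE3, transcription factors that switch on lysosome genes when they enter the nucleus, did not pass the test. TFEB had 8.93 and 7.86 CPM with SAMD9 and 6.01 and 6.81 CPM with empty vector (log2 fold change 0.39, SE 0.17, edgeR adjusted p = 0.0930). TFE3 had 215 and 199 CPM with SAMD9, against 229 and 214 CPM with empty vector (log2 fold change -0.10, SE 0.06, adjusted p = 0.294), and was called lower under total-count scaling. In RPKM TFE3 was far the more abundant of the pair, at 45.3 against 1.39 for TFEB with SAMD9 and 55.2 against 1.21 with empty vector. Their relative MITF fell by 0.43 (SE 0.08, adjusted p = 2.6e-04), and TFEC had at most 8 counts in any library.

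**Figure D3:**
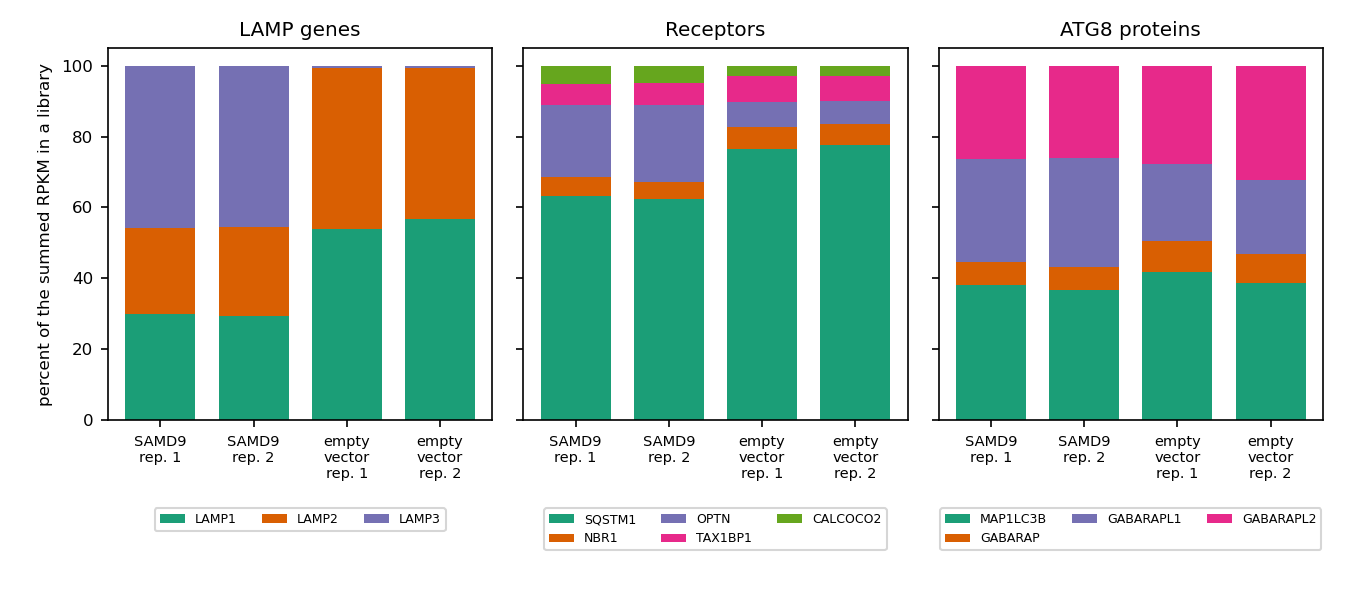
Stacked bars of the percentage of summed RPKM that each gene took within its family in each library, with the SAMD9 libraries on the left. LAMP3 takes 45.8% and 45.4% of the LAMP bar with SAMD9 and 0.688% and 0.584% with empty vector, and the OPTN and GABARAPL1 segments are also larger with SAMD9.

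Of the ATG8 proteins, the ubiquitin-like proteins that coat the autophagosome membrane and bind receptors, GABARAPL1 alone was called. That was 1 of 4 genes, beside 27.5% of all genes tested. GABARAPL1 (ENSG00000139112, chromosome 12, 10212458 to 10223130, plus strand) had 2223 and 1786 counts with SAMD9 and 1229 and 1117 with empty vector. It had 59.6 and 62.4 CPM with SAMD9, against 39.3 and 33.4 CPM with empty vector (log2 fold change 0.75, SE 0.09, edgeR adjusted p = 6.7e-07). The call held under all 10 other ways of processing, with log2 fold changes from 0.56 to 0.87. MAP1LC3B, the gene of the autophagosome marker LC3B, had 102 and 96.8 CPM with SAMD9 and 97.998 and 80.4 CPM with empty vector, so the groups overlapped (log2 fold change 0.15, SE 0.08, adjusted p = 0.177), and it was called higher without empty vector replicate 1. GABARAPL2 stood at 0.07 (SE 0.09) and GABARAP at -0.15 (SE 0.16) on the log2 scale, with adjusted p of 0.600 and 0.564.

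In RPKM, GABARAPL1 made up 29.1% and 30.7% of the ATG8 transcripts with SAMD9 and 21.7% and 20.8% with empty vector. As counted, MAP1LC3B remained the most abundant of the 4, at 38.1% and 36.7% with SAMD9 and 41.7% and 38.6% with empty vector. GABARAPL1 shared only 1.64% of its transcript 31-mers with other genes, all with the pseudogene GABARAPL3, which had at most 2 counts in any library. MAP1LC3B shared 5.92% with MAP1LC3B2, which had 0 counts in all 4. GABARAP is less certain, since a gene on the same strand (ENSG00000262526, 0 counts in all 4) overlaps 30.5% of its length. How reads in that stretch were counted is not given, so the level of GABARAP may be too low. The shares of the 4 genes and their order are uncertain to that extent.

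Of the 5 genes of the ULK1 complex, 3 were called lower, beside 12.2% of all genes tested and 18.7% of those in the same range of expression, and of the 3 only ULK1 kept its call under all 10 other ways of processing. ULK1, the kinase that receives nutrient signals (ENSG00000177169, chromosome 12, 131894651 to 131923167, plus strand), had 4339 and 3046 counts with SAMD9 and 5494 and 5166 with empty vector. Its level fell to 116 and 106 CPM with SAMD9, against 176 and 154 CPM with empty vector (log2 fold change -0.57, SE 0.07, edgeR adjusted p = 1.9e-06). Its paralog ULK2 had 48.2 and 53.0 CPM with SAMD9 and 62.2 and 57.6 CPM with empty vector (-0.24, SE 0.08, adjusted p = 0.0300). The scaffold subunit RB1CC1, also called FIP200, had 91.6 and 94.1 CPM with SAMD9, against 126 and 103 CPM with empty vector (-0.30, SE 0.08, adjusted p = 0.00715). The adaptor subunits ATG13 (0.17, SE 0.08) and ATG101 (-0.17, SE 0.11) were not called, at adjusted p of 0.109 and 0.290, although ATG13 was called higher without empty vector replicate 1 and ATG101 lower under total-count scaling.

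The ULK1 call held under all 10 other ways of processing, with log2 fold changes from -0.75 to -0.47. That of RB1CC1 was lost without empty vector replicate 1, where its log2 fold change was -0.14, so the call rested on that library. That of ULK2 was lost with DESeq2 and without SAMD9 replicate 1, SAMD9 replicate 2 or empty vector replicate 1. As a within-library ratio, ULK1 was 1.05 and 1.01 times ATG13 in RPKM with SAMD9 and 1.69 and 1.76 times ATG13 with empty vector. A gene on the opposite strand, with at most 1 count in any library, overlaps 19.2% of the length of ATG101.

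None of the 5 genes of the class III PI3-kinase complexes was called by edgeR, and 0 of them had an unadjusted p below 0.05. Most genes were not called: edgeR called 27.5% of all genes tested and 39.9% of those in the same range of expression. These are the lipid kinase PIK3C3, its regulatory subunit PIK3R4, the core subunit BECN1, ATG14, which directs the complex to autophagosomes, and UVRAG, which directs it to endosomes. DESeq2 called 0 of them and 4093 genes in all. Their log2 fold changes lay between -0.04 for PIK3R4 and 0.11 for BECN1, with SE from 0.08 to 0.12. BECN1 had 51.3 and 56.6 CPM with SAMD9 and 50.7 and 49.3 CPM with empty vector. Under total-count scaling, where the median gene lay at -0.19, the values of BECN1, PIK3C3, ATG14 and UVRAG turned negative.

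Among the 5 genes that supply and mark membrane, ATG2B alone was called, and it fell, beside 27.5% of all genes tested that were called. ATG2B, a bridge that carries lipid into the growing membrane (chromosome 14, 96281258 to 96363870, minus strand), had 45.6 and 46.8 CPM with SAMD9 and 64.4 and 57.4 CPM with empty vector (log2 fold change -0.40, SE 0.08, edgeR adjusted p = 7.6e-04). Its paralog ATG2A stood at -0.13 (SE 0.08, adjusted p = 0.242), and the ratio of ATG2B to ATG2A in RPKM was 0.408 and 0.425 with SAMD9 and 0.503 and 0.501 with empty vector. The scramblase gene ATG9A was at -0.18 (SE 0.07, adjusted p = 0.0779), and 34.9% of its length overlaps exons listed for ABCB6 on the same strand. WIPI1 (0.22, SE 0.13) and WIPI2 (0.04, SE 0.08), which bind the lipid that PIK3C3 makes, were not called, at edgeR adjusted p of 0.256 and 0.766. ARSG shares 828 exonic bases, 24.3% of the length of WIPI1, on the opposite strand. Under total-count scaling ATG2A and ATG9A were called lower, ATG9A also under upper-quartile scaling.

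The conjugation system was mixed, with 1 rise, 1 fall and 7 genes not called. Of all genes tested 27.5% were called, and 39.9% of those in the same range of expression. ATG16L1, which places the conjugation machinery on the membrane (ENSG00000085978, chromosome 2, 233210051 to 233295674, plus strand), had 1704 and 1164 counts with SAMD9 and 1884 and 2041 with empty vector. Its level fell to 45.7 and 40.7 CPM with SAMD9, against 60.2 and 60.99 CPM with empty vector (log2 fold change -0.49, SE 0.08, edgeR adjusted p = 8.8e-05). ATG12, the ubiquitin-like protein that is joined to ATG5 and held by ATG16L1, rose by 0.31 (SE 0.10, adjusted p = 0.0194), with 35.8 and 41.7 CPM with SAMD9 and 32.2 and 30.2 CPM with empty vector. The call of ATG12 was lost with DESeq2, total counts or upper-quartile scaling and without SAMD9 replicate 2 or empty vector replicate 2. AP3S1, which shares 378 exonic bases with ATG12 on the opposite strand, rose by a like amount, 0.29 (SE 0.10). The ratio of ATG16L1 to ATG12 in RPKM was 1.88 and 1.43 with SAMD9, against 2.75 and 2.97 with empty vector.

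Of the other conjugation genes, the activating enzyme gene ATG7 was closest to the threshold, at 0.29 (SE 0.11, edgeR adjusted p = 0.0501), with 23.9 and 23.0 CPM with SAMD9 and 19.8 and 18.6 CPM with empty vector. It was called with size factors by the RLE method and without empty vector replicate 1, and VGLL4, which rose, shares 18.1% of its length on the opposite strand. ATG5 (-0.18, SE 0.11), the transfer enzyme genes ATG3 (0.03, SE 0.08) and ATG10 (0.05, SE 0.16), and the ATG8-processing protease genes ATG4A (-0.19, SE 0.17), ATG4B (0.16, SE 0.09) and ATG4D (-0.29, SE 0.11) did not pass, with adjusted p from 0.0576 for ATG4D to 0.871 for ATG10. ATG4D was called lower under total-count and upper-quartile scaling and without empty vector replicate 1, and ATG5 under total-count scaling. Counts of ATG4A and ATG10 were at most 411 in any library, and their SE were the largest in this group.

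**Figure D4:**
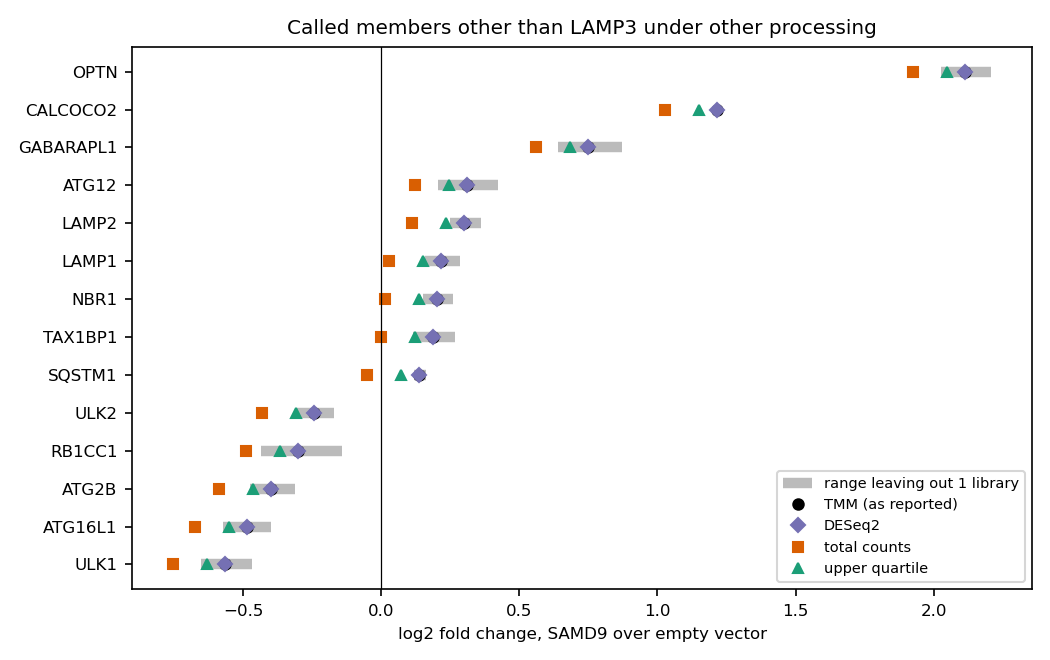
Log2 fold change of the 14 called genes other than LAMP3 as reported (TMM), with DESeq2, with total-count scaling and with upper-quartile scaling, and the range when 1 library is left out (grey bar). OPTN, CALCOCO2 and GABARAPL1 stay well above 0 and ULK1, ATG16L1 and ATG2B well below it, whereas SQSTM1 at -0.05 and TAX1BP1 at -0.00 pass below 0 with total counts.

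Other genes of the same route, taken from lists by function, were read in the same fit. Of 27 further core genes, 25 were tested, and 7 rose and 3 fell, against 15.3% and 12.2% of all genes tested. RUBCN, the gene of Rubicon, an inhibitor of autophagosome and endosome maturation, rose by 1.60 (SE 0.07, edgeR adjusted p = 2.3e-14), with 148 and 156 CPM with SAMD9 and 51.6 and 48.8 CPM with empty vector. AMBRA1, a partner of BECN1 and ULK1, rose by 0.88 (SE 0.07), and STX17, the fusion protein of completed autophagosomes, by 0.97 (SE 0.10). FYTTD1, which overlaps 118 exonic bases of RUBCN on the opposite strand, rose by 1.41 (SE 0.07). The falls were ATG4C, ATG16L2 and TMEM41B, named after their values were seen. DESeq2 called 4093 genes in all, of which 60.0% were higher. With total counts, where 9.96% of all genes tested rose and 28.5% fell, 4 genes rose and 9 fell, with DESeq2 1 fell, and without SAMD9 replicate 2 none fell (0 calls). RUBCN, AMBRA1 and STX17 were called under all 10 other ways of processing.

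Of 17 further receptors and receptor regulators, 5 rose and 1 fell, beside the same 15.3% and 12.2% of all genes tested. BCL2L13, a receptor on the outer mitochondrial membrane, rose by 2.01 (SE 0.07, edgeR adjusted p = 1.8e-16), with 268 and 274 CPM with SAMD9 and 71.1 and 63.1 CPM with empty vector. The mitophagy receptor genes BNIP3 and FKBP8 rose by 0.47 (SE 0.08) and 0.27 (SE 0.07), and the call of FKBP8 was lost under total-count scaling. The others that rose were CALCOCO1 and TBK1, the kinase that phosphorylates OPTN, and TOLLIP fell, all 3 named after their values were seen. Upper-quartile scaling called 5764 genes in all, of which 43.5% were higher, and DESeq2 called 4093, of which 60.0% were higher. With total counts 2 genes rose and 4 fell (9.96% and 28.5% of all genes tested), under upper-quartile scaling or without either SAMD9 library 3 rose, and no gene fell with DESeq2 or without SAMD9 replicate 1, SAMD9 replicate 2 or empty vector replicate 1.

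Of 30 lysosome genes, 13 were called higher and 1 lower, beside 15.3% and 12.2% of all genes tested, and their median log2 fold change was 0.17, against -0.01 for all genes tested. The protease gene CTSS rose 6.94-fold (2.80, SE 0.09, edgeR adjusted p = 9.0e-17), with 104 and 124 CPM with SAMD9 and 16.7 and 16.2 CPM with empty vector. The acid lipase gene LIPA rose 2.80-fold (1.48, SE 0.07) and SCARB2, which carries glucocerebrosidase to the lysosome, 2.47-fold (1.31, SE 0.07). The lower gene was TMEM192, named after its value was seen. With total counts 4 genes rose and 4 fell, beside 9.96% and 28.5% of all genes tested, so the count depended on scaling. Without SAMD9 replicate 2 fewer of the 30 rose and the fall was lost, while fewer genes were called in all as well. The fall was also lost with DESeq2, without a filter on low counts, and without SAMD9 replicate 1 or empty vector replicate 1. CTSS, LIPA and SCARB2 were called under all 10 other ways of processing.

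Genes of nutrient sensing upstream of ULK1 had 2 rises and 6 falls among 30, beside 15.3% and 12.2% of all genes tested and 21.2% and 18.7% of those in the expression range of the 38 genes. The median log2 fold change of the 30 was -0.13. RRAGC, a GTPase that brings mTORC1 to the lysosome, rose by 0.94 (SE 0.12, edgeR adjusted p = 1.7e-06). PRKAA2, the gene of a catalytic subunit of AMPK, fell by 0.75 on the log2 scale (SE 0.12, edgeR adjusted p = 5.1e-05). STK11, the gene of a kinase that can activate AMPK, fell by 0.34 (SE 0.07, edgeR adjusted p = 0.00109). These are RNA levels. Whether A549 cells make working STK11 protein was not tested, nor was AMPK activity. Falls numbered 16 under total-count scaling (where 28.5% of all genes tested fell), 11 under upper-quartile scaling and 1 without SAMD9 replicate 2, where the call of STK11 was lost. The second rise, RRAGA (named after its value was seen), was lost with DESeq2, total counts or upper-quartile scaling and without SAMD9 replicate 1, SAMD9 replicate 2 or empty vector replicate 1. Of the 5764 genes that upper-quartile scaling called in all, 43.5% were higher. STK11 shares 149 exonic bases with CBARP on the opposite strand, which also fell, and 22.9% of the length of RRAGC overlaps another gene on the same strand that had 0 counts in all 4.

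**Figure D5:**
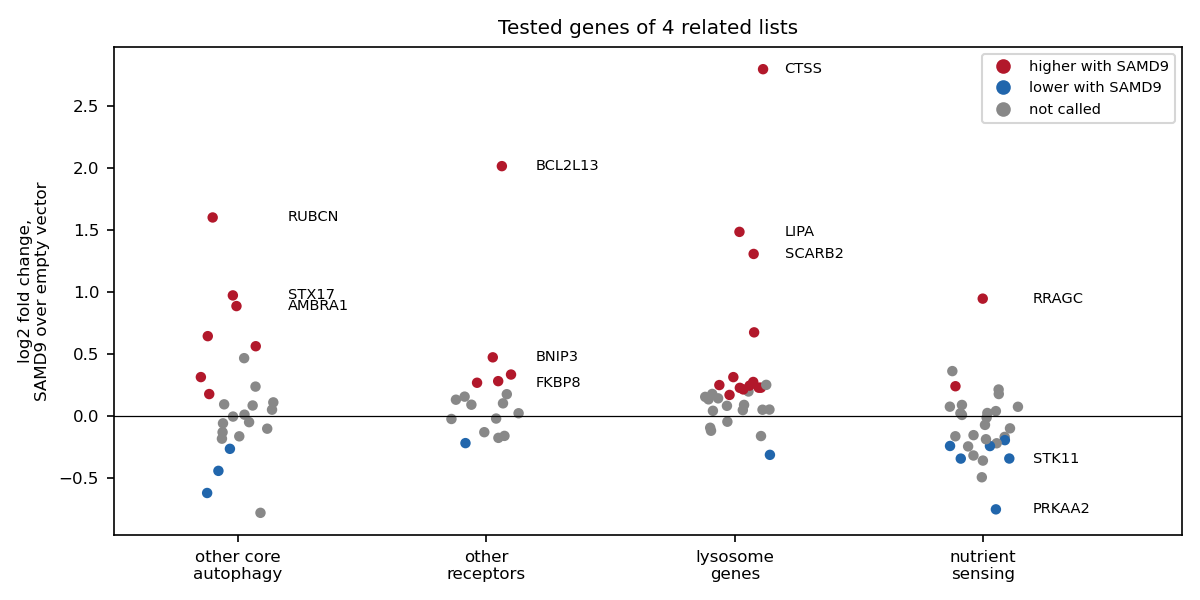
Log2 fold change, SAMD9 over empty vector, of each tested gene in 4 related lists, with the 3 lowest p-values of each list labelled and points spread sideways for legibility. CTSS at 2.80 and BCL2L13 at 2.01 lie highest, and the list medians lie between -0.13 and 0.17.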

How the data were processed

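RNA of 4 libraries of A549 cells was analysed, 2 per group. Per the submitters' processing notes, bcl2fastq, STAR 2.5.1a and featureCounts 1.4.6-p5 (Subread) with build GRCh38 were used. Their options, strand handling included, and the gene annotation's release were not given in the sources used here. The deposited tables give, per gene, a whole-number count, a length, and CPM and RPKM that the authors computed from those counts and scaled by total counts. Even numbers made up 71.8% to 74.1% of counts from 1 to 20, so intervals and SE based on counts may treat fragments as more reads than they are.

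Genes passing filterByExpr (minimum count 10, minimum total 15) were tested in R 4.3.3 with edgeR 4.0.16 (TMM, quasi-likelihood F-test, Benjamini-Hochberg over 19814 genes, called below 0.05), SAMD9 over empty vector, with no covariate. SE is the absolute log2 fold change over the square root of F. Alternatives were DESeq2 1.42.0, other scalings, no filter, a replicate block and leaving out each library. Same-numbered libraries did not deviate together across genes (correlation 0.00118 over 13339 genes). With 2 libraries per group this cannot show whether they were handled together, and the labels do not say. Exon overlaps came from the exon positions in the deposited tables. Shared 31-mers came from GENCODE 29 transcripts (35 of 38 genes had the same start and end there).

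The 38 genes and all lists were chosen with earlier results of these data known. Every one of the 38 could be named, and of each other list the 3 genes with the lowest p, apart from exceptions marked in the text; genes that overlap a named gene, and markers, could also be named.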

Additional observations from a re-analysis of the deposited data

How the results depend on the processing

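Total-count scaling moved the results most: 1974 genes rose and 5653 fell in all, against 3038 and 2420 under TMM, and 4 and 11 of the 38. The share of calls that were higher was 25.9% with total counts, 43.5% with upper-quartile scaling and 55.7% with TMM. Upper-quartile scaling called 5 of the 38 higher and 7 lower, beside 5764 genes called in all, of which 43.5% were higher. Requiring a change of 1 or more on the log2 scale left 3 higher and 0 lower. Leaving out 1 library gave 2291 to 3123 higher and 1466 to 2279 lower genes in all, and 4 to 12 higher and 4 to 5 lower of the 38; without SAMD9 replicate 2 the numbers were 2291 and 1466 in all and 4 and 4 of the 38, and without SAMD9 replicate 1 there were 6 higher of the 38. DESeq2 called 7 and 4 of the 38, beside 4093 genes called in all, of which 60.0% were higher. With the replicate number as a block, 8 of the 38 were higher and 5 lower (2914 and 2330 of all genes).

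The sign turned for 14 genes, in 25 values. With total counts the log2 fold changes were ATG13 -0.016, BECN1 -0.081, PIK3C3 -0.19, ATG14 -0.15, UVRAG -0.13, WIPI2 -0.15, ATG3 -0.16, ATG4B -0.024, ATG10 -0.14, MAP1LC3B -0.034, GABARAPL2 -0.12, SQSTM1 -0.051 and TAX1BP1 -0.0020. With upper-quartile scaling they were PIK3C3 -0.064, ATG14 -0.023, UVRAG -0.0025, WIPI2 -0.025, ATG3 -0.033 and ATG10 -0.017, and with no filter PIK3C3 was at -0.0046. With 1 library left out PIK3C3 ran from -0.15 to 0.17, ATG3 from -0.0014 to 0.073, ATG4A from -0.39 to 0.039 and ATG10 from -0.14 to 0.22. The scalings differ by construction, and the cause of the other changes was not tested. The fold change of LAMP3 rests on 32 and 30 counts in the empty vector libraries.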
